A study of Homo sapiens with 17 samples.

Results

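The genes described here are 10 of the 19141 genes in the deposited count table, listed by name as genes of cell cycle entry, with earlier results of these data known: the kinases CDK1, CDK2, CDK4 and CDK6, the cyclins CCND1, CCND3, CCNE1 and CCNE2, the pocket protein RB1 and the phosphatase CDC25A. Together they make up the core of the step at which a dividing cell leaves G1 and starts to copy its DNA. D-type cyclins bind CDK4 and CDK6, and these kinases phosphorylate RB1, which in its unphosphorylated form holds the E2F transcription factors in check. Freed E2F raises the E-type cyclins, which activate CDK2, and CDC25A removes the inhibitory phosphates from CDK2 and CDK1. In colon cancer the pathway is well known through CCND1, a cyclin whose level follows growth signals.

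The cells were YB5, a clone of the human colon cancer line SW48 that carries an inserted GFP gene under a CMV promoter, silenced by DNA methylation. They received either the vehicle DMSO or toyocamycin at 250 nM, an adenosine analogue (7-deaza-7-cyanoadenosine) first isolated from Streptomyces, and polyadenylated RNA was sequenced from both ends. The 17 libraries comprise 2 per arm at 2 h, 1 DMSO and 2 toyocamycin libraries at 10 h, 1 per arm at 24 h and at 48 h, and 3 per arm at the last time point, given as 72 h by the labels but as 96 h in the study's text. Of these, 4 libraries belong to batch 2 by their labels, namely replicate 2 of each arm at 2 h and at 10 h, and the other 13 to batch 1. The comparison at each time asks how the drug changed the RNA of these cells against vehicle of the same culture time. Cells were sequenced in bulk, so a change in the share of cells in a given phase of the cycle and a change in RNA per cell cannot be told apart.

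Gene counts summed to 8735465 in the shallowest library, toyocamycin replicate 2 at 10 h, and to 22121364 in the deepest. In that library 6.55% of counts fell on the 13 mitochondrially encoded genes, against 0.917 to 3.49% elsewhere. Of 9 markers of colon epithelium, EPCAM, CDH1, KRT8, KRT18, KRT19 and CDX2 lay at 26.0 CPM (counts scaled to library size) or above in all 8 DMSO libraries, while VIL1 reached 2.26 CPM at most, LGALS4 0.21 CPM at most, and CDX1 was at 0. The summed level of this list was 1760 to 6931 CPM in DMSO and 531.8 to 563.3 CPM on toyocamycin at the last time point. KRT8 alone reached 4689 CPM in DMSO. Of the 8 genes of the list that were tested at the last time point, 6 fell, and CDX2 (0.61) and LGALS4 rose, LGALS4 to 2.46 to 5.30 CPM. Of all genes tested there, 41.9% fell and 47% rose. The summed level of 8 markers of other cell types was 1.88 to 12.7 CPM in DMSO. On toyocamycin at the last time point it was 91.1 to 112.6 CPM, of which ACTA2 reached 92.1 CPM. There 7 of the 8 rose, where 47% of all genes tested did. On toyocamycin from 24 h on, VIM reached 0.96 CPM at most, ALB and GFAP 1.48 CPM and PECAM1 2.95 CPM. COL1A2 reached 5.65 CPM and COL1A1 12.3 CPM. The part of these shifts in the results below was not tested.

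Promoter sequences are shown for 4 genes that stand for the 4 kinds of response described below. CDC25A was lower from 2 h on, CCNE1 had the largest fall, CDK1 was first called lower at the last time point, and CDK6 was higher. RefSeq promoter entries on GRCh38.p14 were matched for 7 of the 10 genes, with no entry for CDK2, CCND1 and CCNE2. Each run is the 250 bases before the annotated start, read 5′ to 3′ on the gene's own strand, with motif matches in capitals. They lie at chr3:48188418-48188667 (CDC25A, minus strand), chr19:29811741-29811990 (CCNE1, plus strand), chr10:60778081-60778330 (CDK1, plus strand, the first of its 2 entries) and chr7:92836574-92836823 (CDK6, minus strand, the first of its 2 entries), and no base of them lies in an annotated exon.
CDC25A: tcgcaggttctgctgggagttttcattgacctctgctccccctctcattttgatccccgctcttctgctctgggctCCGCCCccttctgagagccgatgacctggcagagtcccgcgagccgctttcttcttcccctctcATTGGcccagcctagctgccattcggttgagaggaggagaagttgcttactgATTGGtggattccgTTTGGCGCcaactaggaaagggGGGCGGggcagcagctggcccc
CCNE1: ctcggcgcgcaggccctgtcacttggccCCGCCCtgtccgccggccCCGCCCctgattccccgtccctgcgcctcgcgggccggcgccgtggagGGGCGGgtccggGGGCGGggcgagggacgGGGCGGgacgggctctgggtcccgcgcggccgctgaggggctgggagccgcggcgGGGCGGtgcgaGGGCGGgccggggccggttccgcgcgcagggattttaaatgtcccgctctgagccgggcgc
CDK1: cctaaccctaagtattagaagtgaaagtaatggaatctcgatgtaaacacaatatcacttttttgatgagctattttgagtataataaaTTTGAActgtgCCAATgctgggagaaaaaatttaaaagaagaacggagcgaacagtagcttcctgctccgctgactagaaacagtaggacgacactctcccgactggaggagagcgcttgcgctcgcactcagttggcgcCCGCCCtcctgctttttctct
CDK6: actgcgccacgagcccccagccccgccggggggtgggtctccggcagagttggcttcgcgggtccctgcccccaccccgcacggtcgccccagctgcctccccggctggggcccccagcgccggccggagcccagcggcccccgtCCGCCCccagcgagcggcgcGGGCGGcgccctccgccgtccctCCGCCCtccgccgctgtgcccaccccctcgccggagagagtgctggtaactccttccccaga
The motifs searched, on both strands, were the E2F site (TTTCGCGC or TTTGGCGC), the cell cycle homology region or CHR (TTTGAA), the CCAAT box (CCAAT), the E-box (CACGTG) and the GC box (GGGCGG), and the letters of none lie within another. The E2F site was matched in CDC25A, at position -44 from the start, and in the second entry of CDK1, at -128. The 7 genes have 11 entries, of which 2 hold it, and 0.97% of all 35116 promoters of the same length do. The entries are not alike in place: the start of the only RB1 entry lies 172706 bases, and that of CDK4 3703 bases, downstream of the annotated start of the gene. Those of CCND3 lie 1669, 108549 and 111152 bases downstream, and the second of CDK6 lies 2614 bases downstream. The CHR was matched in both entries of CDK1 and in no other of the 11, at -161 in the run above, against 13.32% of all promoters. GC boxes were matched in 8 of the 11 entries and in 42.64% of all promoters, with 7 in the run of CCNE1. CCAAT boxes were matched in 5 of the 11 entries, of CDK1, CDC25A and CCND3 (32.01% of all promoters), and E-boxes in 1, of CDK4 (6.34% of all promoters). A match describes the letters of the window and is not a measured binding site.

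**Figure D1:**
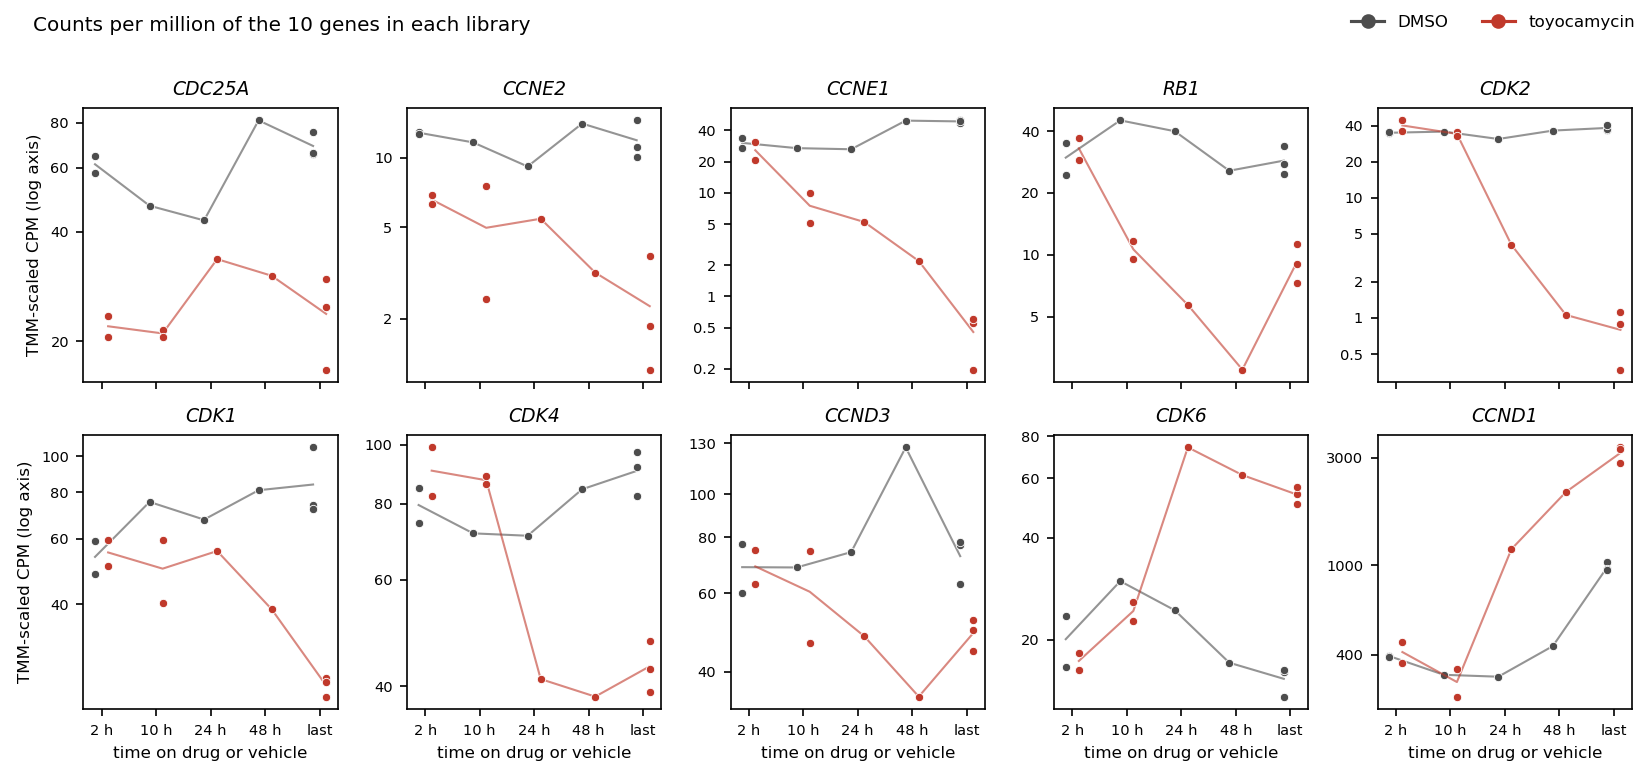
TMM-scaled CPM (log axis) of each gene in each library, by time point, with DMSO in grey and toyocamycin in red; points are libraries and lines join the means. CDC25A and CCNE2 were called lower on toyocamycin at 2 h, 10 h and the last time point, and CCNE1 and RB1 at 10 h and the last time point. There was no test at 24 h and 48 h. CDK2 was more than 2-fold lower from 24 h, and CDK6 and CCND1 were more than 2-fold higher from 24 h.

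After 2 h, CDC25A and CCNE2 fell, and the other 8 genes were not called. Levels are given as CPM scaled by the TMM method, and a call means that edgeR's quasi-likelihood test gave a p under 0.1 after Benjamini-Hochberg adjustment over all genes tested. Thus 2 of 10 genes were called lower, where 8.42% of the 14491 genes tested were, and 0 were called higher, where 0.518% of genes were. At an unadjusted p under 0.05 the counts were likewise 2 lower and 0 higher, and DESeq2 called 1 lower and 0 higher. With the replicate number as a block, the same counts of 2 and 0 stood beside 18.7% of 11848 genes called lower and 8.72% called higher. The median log2 fold change of the 10 genes was 0.02, equal to that of all genes tested (0.02).

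CDC25A (ENSG00000164045, chr3:48157146-48188417, minus strand) encodes the phosphatase that switches on CDK2 by removing inhibitory phosphates. In DMSO at 2 h it was at 57.9 and 64.9 CPM, and on toyocamycin at 23.4 and 20.5 CPM. The groups did not overlap, and each toyocamycin library was below the DMSO library of its own batch, with a log2 ratio of -1.30 in batch 1 and -1.66 in batch 2. The fitted log2 fold change was -1.48 ± 0.21 (SE), or 2.79-fold lower, with an edgeR adjusted p of 3.71e-04. This call was kept in every fit tried except that scaled to the mitochondrial genes, where the adjusted p was 0.281.

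CCNE2 (ENSG00000175305, chr8:94879770-94896678, minus strand) encodes cyclin E2, a partner of CDK2. It was at 13.0 and 12.7 CPM in DMSO and at 6.88 and 6.28 CPM on toyocamycin, again without overlap and in the same direction in both batches (-0.91 and -1.01). Its log2 fold change was -0.96 ± 0.30 (SE) with an edgeR adjusted p of 0.0709. Leaving out any of the 4 libraries ended this call, with edgeR adjusted p-values from 0.139 to 0.271. Its close relative CCNE1 was at 33.7 and 27.0 CPM in DMSO and at 30.6 and 20.9 CPM on toyocamycin, groups that overlap.

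The other 7 genes had fitted log2 fold changes between -0.21 (CDK6) and 0.20 (CDK2) at 2 h. The largest positive value, of CDK2, came from 34.5 and 35.2 CPM in DMSO against 36.0 and 44.2 CPM on toyocamycin, with an edgeR adjusted p of 0.687, and both toyocamycin libraries were above both DMSO libraries. CDK1, CDK4, CDK6, CCND1, CCND3 and RB1 had toyocamycin libraries within or across the range of their DMSO libraries.

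After 10 h, CCNE1 and RB1 had also fallen. With them, 4 of the 10 genes were called lower (CCNE1, CCNE2, RB1 and CDC25A), where 24.4% of the 16521 genes tested were. In the other direction 0 were called higher, where 20.4% of genes were, and 0 had an unadjusted p under 0.05 in edgeR. DESeq2 called 1 gene higher, CDK4. With batch as a term in the fit, 27.2% of genes were called lower and 37.8% higher, and 6 of the 10 were called lower, CDK1 and CCND3 being added. The median log2 fold change was -0.44 over the 10 genes and 0.42 over all genes. With 1 DMSO library at 10 h, the spread in this fit came from the 17 libraries together.

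RB1 (ENSG00000139687, chr13:48303744-48599436, plus strand), the retinoblastoma protein that restrains E2F, was at 45.1 CPM in DMSO and at 9.57 and 11.7 CPM on toyocamycin. Both toyocamycin libraries were below the lowest of all 8 DMSO libraries, 24.4 CPM. The log2 fold change of RB1 was -2.09 ± 0.29 (SE), or 4.26-fold lower, with an edgeR adjusted p of 4.97e-05. That fold rests in part on the DMSO library of 10 h, the highest of the 8, whose median was 30.7 CPM. At 2 h RB1 had been at 24.4 and 35.1 CPM in DMSO and at 28.9 and 37.1 CPM on toyocamycin.

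CCNE1 (ENSG00000105173, chr19:29811991-29824312, plus strand), which encodes cyclin E1, was at 27.0 CPM in DMSO and at 9.92 and 5.08 CPM on toyocamycin at 10 h. Its log2 fold change was -1.82 ± 0.32 (SE), with an edgeR adjusted p of 4.39e-04. CDC25A stayed near its 2 h level, at 21.4 and 20.6 CPM on toyocamycin against 47.2 CPM in DMSO (log2 fold change -1.17 ± 0.26, edgeR adjusted p = 0.00273). CCNE2 was at 7.50 and 2.43 CPM against 11.6 CPM in DMSO, so its toyocamycin libraries stood far apart from each other. Its log2 fold change was -1.18 ± 0.47 (SE) with an edgeR adjusted p of 0.0638, and 0.253 without toyocamycin replicate 2, the library of lowest depth.

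CDK1 (ENSG00000170312, chr10:60778331-60794852, plus strand), the mitotic kinase, just missed the threshold at 10 h. It was at 75.4 CPM in DMSO and at 59.4 and 40.2 CPM on toyocamycin (log2 fold change -0.59 ± 0.27, edgeR adjusted p = 0.102). Without toyocamycin replicate 1, which is of another batch than the DMSO library, the log2 fold change was -0.91 with an edgeR adjusted p of 0.0105. CCND3, which was not called at 10 h (-0.18, edgeR adjusted p = 0.599), was at -0.56 without that library, with an edgeR adjusted p of 0.0644. Both of these fits set 1 library against 1, with the spread taken from the other groups, so they assume that the lone libraries vary like those. Within batch 2 the log2 ratios were -2.41 for CCNE1, -1.94 for RB1, -1.20 for CDC25A and -2.26 for CCNE2.

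At 24 h and 48 h there was 1 library per arm, so the differences have no replicate check and no test, and a fold of 2 is used for counting. At 24 h CDK2 was lower and CDK6 and CCND1 were higher by more than that for the first time. Of the 10 genes, 3 were past 2-fold lower (CDK2, CCNE1 and RB1) and 2 past 2-fold higher, where 27.8% and 29.7% of all genes were. At 48 h, 8 were past 2-fold lower and 2 past 2-fold higher, where 29.9% and 38.1% of all genes were. Over the 10 genes the median log2 ratio was -0.67 at 24 h and -1.61 at 48 h, and over all genes it was 0 and 0.16.

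CDK2 (ENSG00000123374, chr12:55966781-55972789, plus strand) encodes the kinase that cyclins E and A drive through S phase. It was at 35.6 CPM in DMSO and at 35.6 and 32.6 CPM on toyocamycin at 10 h, at 30.9 against 4.06 CPM at 24 h, and at 36.3 against 1.06 CPM at 48 h. The step between 10 h and 24 h is therefore where its level on the drug moved most. In the same interval CDK6 (ENSG00000105810, chr7:92604921-92836573, minus strand), a partner of the D cyclins, went from 25.8 and 22.8 CPM on toyocamycin to 74.1 CPM, with DMSO at 29.8 and 24.4 CPM. CCND1 (ENSG00000110092, chr11:69641156-69654474, plus strand), which encodes cyclin D1, went from 345.4 and 261.3 CPM to 1181 CPM, with DMSO at 326.6 and 320.3 CPM.

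RB1 reached its lowest level on the drug at 48 h, 2.77 CPM against 25.7 CPM in DMSO, a log2 ratio of -3.18. CCND3 (ENSG00000112576, chr6:41934934-42050357, minus strand), which encodes cyclin D3, had its lowest log2 ratio there too, -1.83. That value rests in part on the DMSO library of 48 h, at 127.3 CPM, where the other 7 DMSO libraries ranged from 59.9 to 78.3 CPM. On toyocamycin CCND3 was at 48.1 CPM at 24 h and 35.2 CPM at 48 h. CDC25A had its smallest difference at 24 h, with 33.6 CPM on toyocamycin and 43.0 CPM in DMSO (log2 ratio -0.34).

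**Figure D2:**
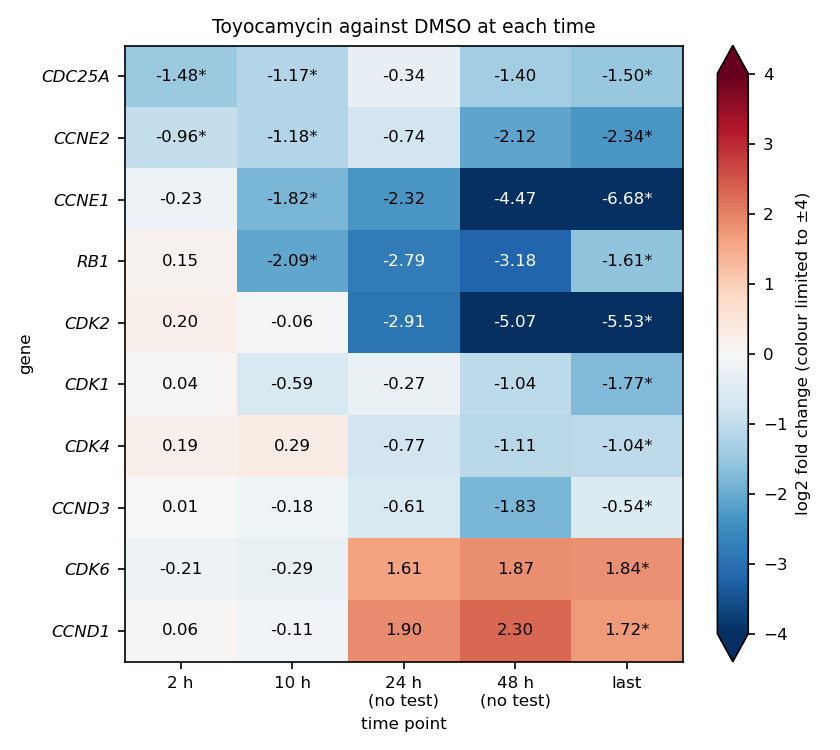
Log2 fold change of toyocamycin against DMSO for each gene (vertical axis) at each time point (horizontal axis), with the value printed in each cell and an asterisk where the gene was called at an edgeR adjusted p under 0.1; 24 h and 48 h have 1 library per arm and no test. Read from left to right, asterisks appear for 2 genes at 2 h, 4 at 10 h and 10 at the last time point.

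At the last time point all 10 genes were called by edgeR. CDK1, CDK2, CDK4, CCND3, CCNE1, CCNE2, RB1 and CDC25A (8 genes) fell, where 41.9% of all genes tested did. CDK6 and CCND1 rose, where 47% of genes did. For each of the 10 genes, the 3 toyocamycin libraries lay outside the range of the 3 DMSO libraries. The share of all genes for which this held was not counted. In the pathway lists described below it held for 7 of 7 CDK inhibitor genes and 10 of 12 pocket protein and E2F genes. It also held there for 8 of 11 other cyclins and kinases, 10 of 11 turnover genes and 12 of 12 E2F targets. The median log2 fold change was -1.56 over the 10 genes and 0.18 over all genes. That all-gene median moved with the scaling, to 0.50 with the size factors of DESeq2, -0.42 with library size alone and -0.89 when scaled to mitochondrial genes, and the sign of each of the 10 genes was the same under all 4.

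CCNE1 and CDK2, the cyclin and kinase of the G1 to S step, showed the largest falls. CCNE1 was at 50.05, 47.2 and 49.4 CPM in DMSO and at 0.20, 0.56 and 0.61 CPM on toyocamycin, which are 2, 6 and 7 reads. Its fitted log2 fold change was -6.68 ± 0.28 (SE), with an edgeR adjusted p of 8.07e-12. From the summed counts of each arm, 3178 and 15 reads, it was 106-fold lower, with an exact 95% interval of 64.1 to 189 for counting error alone. CDK2 was at 37.0, 37.2 and 40.5 CPM in DMSO and at 0.88, 0.37 and 1.13 CPM on toyocamycin, or 4 to 13 reads a library. Its fitted log2 fold change was -5.53 ± 0.24 (SE) with an edgeR adjusted p of 1.24e-11, and the summed counts gave 47.8-fold lower (exact 95% interval 32.6 to 73.3, counting error alone).

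CCNE2 fell less than CCNE1. It was at 11.1, 10.0 and 14.5 CPM in DMSO and at 1.87, 1.20 and 3.74 CPM on toyocamycin (log2 fold change -2.34 ± 0.29, edgeR adjusted p = 1.87e-06). CDK1 was at 74.1, 72.0 and 105.7 CPM in DMSO and at 25.3, 22.5 and 24.6 CPM on toyocamycin (log2 fold change -1.77 ± 0.16, edgeR adjusted p = 6.44e-08). Its DMSO replicate 3 stood above the other two.

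RB1 was at 27.6, 24.7 and 33.8 CPM in DMSO and at 11.3, 7.32 and 9.04 CPM on toyocamycin. All 3 of these toyocamycin values were above the 2.77 CPM of the 48 h library, a difference that was not tested. The log2 fold change of RB1 was -1.61 ± 0.20 (SE), with an edgeR adjusted p of 2.37e-06. CDC25A was at 75.2, 65.6 and 66.1 CPM in DMSO and at 24.9, 16.7 and 29.7 CPM on toyocamycin (log2 fold change -1.50 ± 0.18, edgeR adjusted p = 9.10e-07).

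CDK4 (ENSG00000135446, chr12:57747727-57756013, minus strand), a kinase partner of the D cyclins, had the second smallest fall. It was at 92.0, 97.5 and 82.4 CPM in DMSO and at 47.6, 39.2 and 42.8 CPM on toyocamycin, 2.05-fold lower (log2 fold change -1.04 ± 0.13, edgeR adjusted p = 2.59e-06). CCND3 had the smallest fall, from 76.8, 78.3 and 62.9 CPM to 44.5, 49.8 and 52.4 CPM (log2 fold change -0.54 ± 0.14, edgeR adjusted p = 0.00258). With the size factors of DESeq2 its log2 fold change was -0.22 with an edgeR adjusted p of 0.173, so the call for CCND3 depends on the scaling.

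CDK6 and CCND1, which form a complex, were the 2 genes that rose. CDK6 was at 16.1, 13.6 and 16.3 CPM in DMSO and at 54.1, 50.5 and 56.6 CPM on toyocamycin, 3.59-fold higher (log2 fold change 1.84 ± 0.15, edgeR adjusted p = 1.82e-08). CCND1 was at 1030, 965.7 and 956.3 CPM in DMSO and at 2836, 3344 and 3301 CPM on toyocamycin, 3.28-fold higher (log2 fold change 1.72 ± 0.13, edgeR adjusted p = 7.97e-09). Scaled to the mitochondrial genes, the log2 fold change was 0.77 for CDK6 (edgeR adjusted p = 0.0949) and 0.62 for CCND1 (edgeR adjusted p = 0.177).

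CCND1 also rose in DMSO alone. In vehicle it was at 320.3 to 438.2 CPM in the 5 libraries up to 48 h and at 956.3 to 1030 CPM in the 3 of the last time point. Between DMSO at the last time point and DMSO at 2 h, 3 of the 10 genes were called, each higher, where 10.2% of all genes were called higher and 11.4% lower. They were CCND1 (log2 fold change 1.31 ± 0.15, edgeR adjusted p = 4.53e-05), CCNE1 (0.69 ± 0.19, edgeR adjusted p = 0.0263) and CDK1 (0.65 ± 0.18, edgeR adjusted p = 0.0233). The median of the 10 genes was 0.15 and that of all genes -0.03. The 2 h libraries include batch 2 and those of the last time point do not, and in batch 1 alone CCND1 in DMSO at 2 h was at 397.4 CPM. With a batch term the DMSO log2 fold change of CCNE1 was 0.42 (edgeR adjusted p = 0.176), and its call ended. That call also ended with all 17 libraries in the fit (edgeR adjusted p = 0.103). Without DMSO replicate 2 at 2 h the value of CCNE1 was 0.54, and without replicate 1 that of CDK1 was 0.51.

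The effect of the drug at the last time point was then compared with its effect at 2 h in the same fit. For 9 of the 10 genes the effects differed, with 7 lower at the last time point (38.1% of all genes) and 2 higher (38% of all genes). The median difference was -1.30 on the log2 scale over the 10 genes and 0.24 over all genes. CCNE2 belongs to these genes, with a further -1.38 ± 0.42 on top of its effect at 2 h (edgeR adjusted p = 0.00814). CDC25A was the exception, with a difference of -0.02 ± 0.27 (SE) and an edgeR adjusted p of 0.986. Its log2 fold changes in the early comparisons were -1.48 and -1.17, and in the last -1.50.

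To compare the genes with each other, CPM was divided by the length of the merged exons of each gene in kilobases (GENCODE v44). In DMSO at the last time point, CCND1 was the highest at 206.7 ± 8.45 CPM per kb (SD, n = 3). CDK4 (29.3 ± 2.47), CDK1 (21.5 ± 4.83), CCNE1 (19.9 ± 0.612), CDC25A (16.6 ± 1.30), CCND3 (12.6 ± 1.48), CDK2 (9.83 ± 0.507), RB1 (4.46 ± 0.723), CCNE2 (2.71 ± 0.530) and CDK6 (1.25 ± 0.124) followed, all in CPM per kb. The ranges of CDK4 and CDK1 overlapped, as did those of CDK1 and CCNE1, and those of the other neighbours did not.

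On toyocamycin at the last time point the order was CCND1 (663.8 ± 59.1 CPM per kb), CDK4 (13.95 ± 1.36), CCND3 (8.49 ± 0.696), CDK1 (6.17 ± 0.366), CDC25A (5.73 ± 1.59), CDK6 (4.39 ± 0.249), RB1 (1.43 ± 0.311), CCNE2 (0.516 ± 0.299), CDK2 (0.205 ± 0.0997) and CCNE1 (0.184 ± 0.0911). CCNE1 thus moved from the fourth place to the last, and CDK6 from the last place to the sixth. Neighbours whose ranges overlapped were CDK1 and CDC25A, CDC25A and CDK6, CCNE2 and CDK2, and CDK2 and CCNE1.

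Shares within a family do not depend on how libraries are scaled. Of the summed CPM per kb of CDK1, CDK2, CDK4 and CDK6, CDK2 made up 15.8 to 19.0% in the 8 DMSO libraries and 16.8 to 18.9% in the 4 toyocamycin libraries of 2 h and 10 h. It was at 3.02% at 24 h, 0.985% at 48 h and 0.421 to 1.16% at the last time point. CDK6 made up 1.83 to 4.51% of the sum in DMSO and 16.7 to 18.5% on toyocamycin at the last time point. The ratio of CDK6 to CDK4 was 0.0352 to 0.105 in DMSO, 0.455 and 0.403 on toyocamycin at 24 h and 48 h, and 0.287 to 0.334 at the last time point. Of the 2 kinases that bind D cyclins, CDK6 thus gained relative to CDK4 from 24 h on. CDK4 was still the more abundant RNA per length in every library.

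Among the D cyclins, CCND1 made up 73.0 to 90.1% of the summed CPM per kb of CCND1, CCND2 and CCND3 in DMSO and 96.9 to 97.3% on toyocamycin at the last time point. The sum of CCND1, CCND2 and CCND3 was 5.39 to 10.5 times that of CCNE1 and CCNE2 in DMSO, and 8.29 and 9.71 times on toyocamycin at 2 h. This ratio was 16.1 and 27.1 at 10 h, 85.5 at 24 h, 294.5 at 48 h and 650.3 to 1444 at the last time point, above all DMSO libraries at each of those times. Within the E cyclins the ratio of CCNE1 to CCNE2 was 3.80 to 8.40 in DMSO. On toyocamycin at the last time point it was 0.188 to 0.825, with CCNE2 the higher of the pair per length. Both ratios rest there on 2 to 7 reads of CCNE1 and 13 to 43 reads of CCNE2 a library. CCNE2 also shares exon bases with INTS8, as given below.

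**Figure D3:**
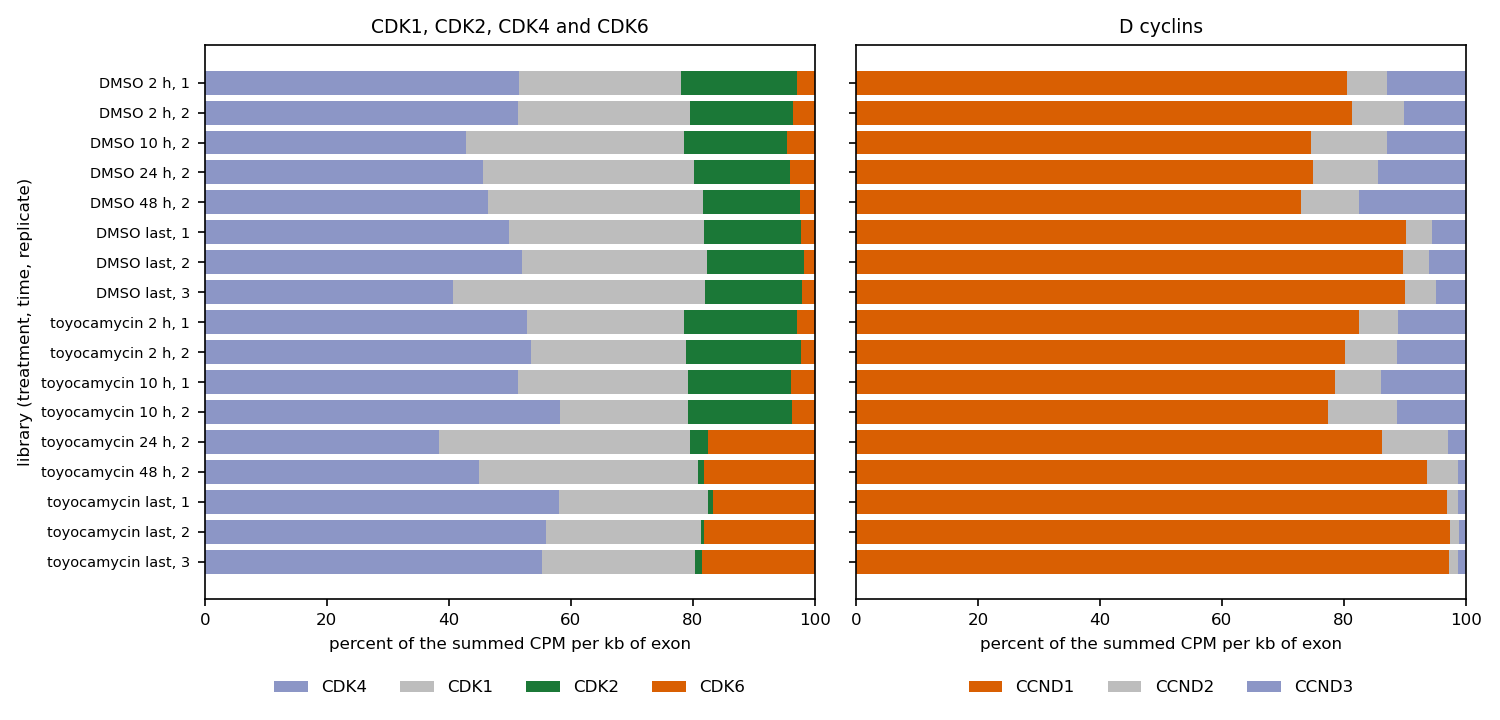
Share of each gene in the summed CPM per kb of exon of 4 CDKs (left) and of the 3 D cyclins (right), in percent, with 1 bar per library. The CDK2 share is 16.8 to 18.9% on toyocamycin up to 10 h and at most 1.16% at the last time point, and the CDK6 share there is 16.7 to 18.5%.

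Some of these genes share exon bases with a counted gene on the other strand, and the strand setting of the counting is not given in the sources used here, so reads from shared bases cannot be assigned. CDK4 shares 1369 of its 3094 exon bases with TSPAN31, which rose on toyocamycin at the last time point (log2 fold change 1.52, edgeR adjusted p = 9.43e-07) while CDK4 fell. CCNE2 shares 1629 of its 4397 exon bases with INTS8, an Integrator subunit gene that fell at 10 h (-1.53, edgeR adjusted p = 3.35e-04) and at the last time point (-1.78, edgeR adjusted p = 3.87e-07), with a log2 fold change of 0.06 at 2 h. CCND1 shares 497 of its 4761 exon bases with LTO1, which rose at the last time point (3.26, edgeR adjusted p = 1.16e-11) to 131.8 CPM at most, against 3344 CPM for CCND1. CDK2 shares 89 of its 3887 exon bases with PMEL, which was at 4.32 CPM at most in DMSO. RB1 shares 0 exon bases with LPAR6, a receptor gene inside it, which was at 0.21 CPM at most in DMSO and at 160.9 to 206.1 CPM on toyocamycin at the last time point. CDK1, CCNE1, CDK6, CCND3 and CDC25A overlap no counted gene.

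The rest of the pathway was read from 5 lists of 54 genes, of which 53 were tested. At 2 h, 13 of them fell and 40 were not called. At 10 h, 29 fell, 5 rose and 19 were not called, and at the last time point 31 fell, 15 rose and 7 were not called by edgeR. Their median log2 fold change was -0.13, -0.63 and -0.91 at these times, beside 0.02, 0.42 and 0.18 over all genes. Over all genes, 8.42% fell and 0.518% rose at 2 h, 24.4% fell and 20.4% rose at 10 h, and 41.9% fell and 47% rose at the last time point, and the counts of each list are to be read against these shares.

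Of 7 genes of CDK inhibitors, 3 fell at 2 h, 2 fell and 2 rose at 10 h, and 5 rose and 2 fell at the last time point, with a median log2 fold change of 1.14 there. These shares are close to those of all genes at 10 h (24.4% lower, 20.4% higher), and at the last time point 1 of the 2 falls had an unadjusted p under 0.05. CDKN1A, which encodes p21, a p53 target that binds cyclin E with CDK2, was at 62.0 and 83.6 CPM in DMSO and at 36.8 and 32.9 CPM on toyocamycin at 2 h, a log2 fold change of -1.06 (edgeR adjusted p = 0.00157). By the last time point it was at 181.1 to 216.8 CPM in DMSO and 3997 to 4570 CPM on toyocamycin (4.43 ± 0.16, edgeR adjusted p = 2.48e-12). CDKN1B, which encodes p27, fell at 2 h (-0.88, edgeR adjusted p = 0.00278) and rose at the last time point (2.17, edgeR adjusted p = 4.36e-10). The 2 h calls of CDKN1A and CDKN1B ended when scaled to the mitochondrial genes (edgeR adjusted p = 0.520 and 0.898) and with all 17 libraries in the fit (edgeR adjusted p = 0.114 and 0.101). CDKN2A, the locus of p16 and ARF, rose at 10 h (1.67, edgeR adjusted p = 0.00877) and was called lower at the last time point (-0.52, unadjusted p = 0.0693 and adjusted p = 0.0788 in edgeR), from 6.18 CPM at most in DMSO. That later call ended with the size factors of DESeq2 (-0.19, edgeR adjusted p = 0.498) and without DMSO replicate 1, DMSO replicate 2, toyocamycin replicate 1 or toyocamycin replicate 2 (edgeR adjusted p from 0.103 to 0.214). The lowest value of the list was that of CDKN1C (-1.14, edgeR adjusted p = 0.00323).

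Of the 12 genes of the other pocket proteins, the E2F factors and their DP partners, 5 fell at 2 h, 4 fell and 1 rose at 10 h, and 6 fell and 4 rose at the last time point, where 41.9% of all genes fell and 47% rose. The extremes there were 2 repressors. E2F8 was lower at each tested time (-1.38, -2.36 and -3.54, edgeR adjusted p = 0.00531, 1.00e-04 and 9.45e-09), and E2F6 went from -0.75 at 2 h to 1.40 at 10 h and 2.55 at the last time point (edgeR adjusted p = 0.00972, 0.00148 and 1.21e-10). The list's median was -0.55 at the last time point.

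Of 12 E2F target genes, most of them replication genes, 2 fell at 2 h, 8 at 10 h and 11 at the last time point, with a median log2 fold change of -2.004 there. Of all genes 8.42%, 24.4% and 41.9% fell at these times. MCM5, a subunit of the replicative helicase, had the lowest value (-4.44, edgeR adjusted p = 6.21e-12). PCNA, the sliding clamp, was the 1 gene that rose, from 221.7 to 261.2 CPM in DMSO to 375.8 to 419.2 CPM on toyocamycin (0.78, edgeR adjusted p = 6.06e-05), and its sign turned to -0.28 when scaled to the mitochondrial genes.

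Of the other cyclins, kinases and phosphatases, 11 of 12 genes were tested, since CCNA1 did not pass the filter on low counts. There were 2 that fell at 2 h, 8 at 10 h and 6 at the last time point, where 1 rose and the median was -1.64. Of all genes 8.42%, 24.4% and 41.9% fell at these times and 47% rose at the last. CDC25B, a sister phosphatase of CDC25A, was at 102.8 and 106.9 CPM in DMSO and at 122.7 and 113.9 CPM on toyocamycin at 2 h, so it differed from CDC25A in the order of events. At 10 h it had fallen (-3.20, edgeR adjusted p = 5.80e-07), and at the last time point it had the largest fall of all these genes, to 1.18 to 1.95 CPM from 206.5 to 220.7 CPM (-7.00, edgeR adjusted p = 2.66e-13). CCNH, the cyclin of the CDK-activating kinase, was the gene that rose (1.06, edgeR adjusted p = 4.45e-05), and was at 0.03 when scaled to the mitochondrial genes (edgeR adjusted p = 0.953).

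Of 11 genes that control the turnover of cyclins and inhibitors, 1 fell at 2 h, 7 fell and 2 rose at 10 h, and 6 fell and 4 rose at the last time point, with a median of -0.31. At 2 h and at the last time point these shares are near those of all genes (8.42% lower at 2 h, 41.9% lower and 47% higher at the last). USP28, a deubiquitinase that opposes the ubiquitin ligase adaptor FBXW7, had the lowest value (-5.22, edgeR adjusted p = 1.67e-10). FBXO5, an inhibitor of the anaphase-promoting complex, had the highest (3.11, edgeR adjusted p = 3.86e-11).

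**Figure D4:**
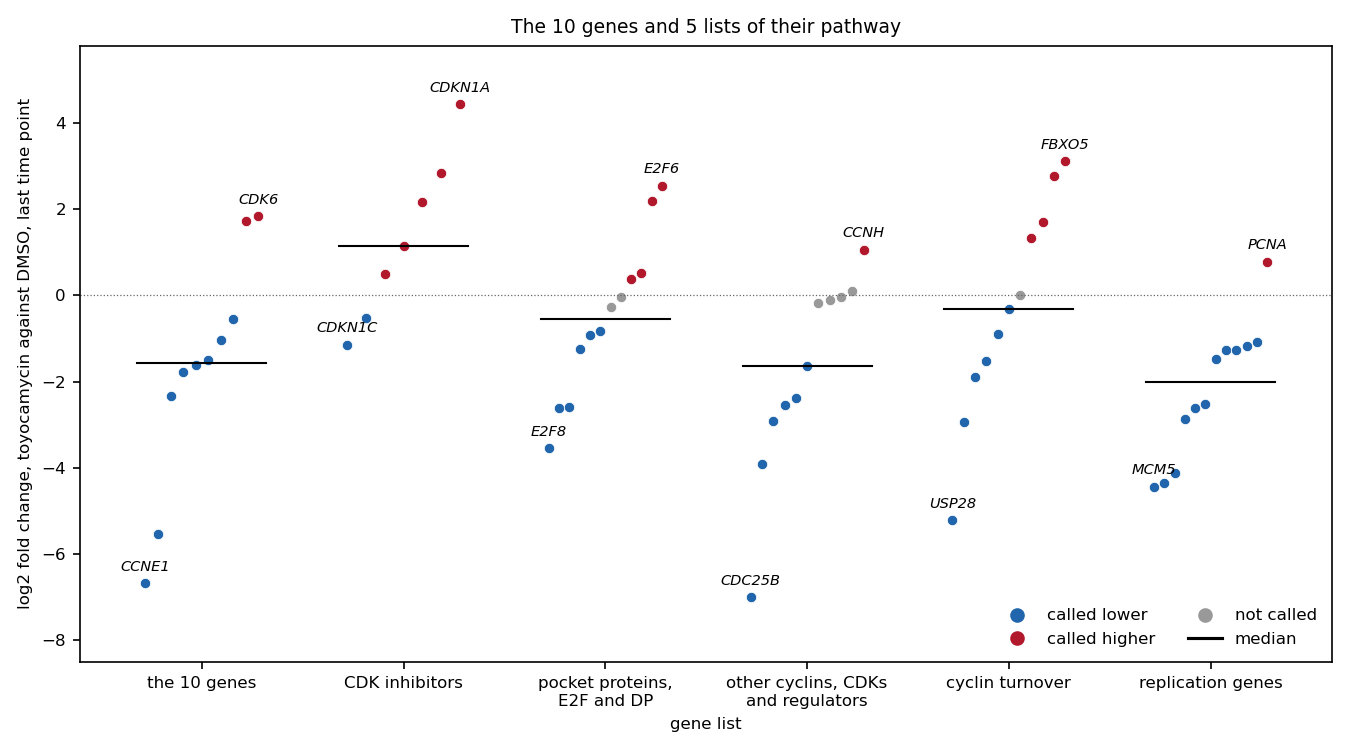
Log2 fold change of toyocamycin against DMSO at the last time point for the 10 genes and for the tested genes of 5 pathway lists; each point is a gene, blue where called lower, red where called higher and grey where not called, and the black bar is the list's median. The medians are -1.56 for the 10 genes, 1.14 for the CDK inhibitors and -2.004 for the E2F targets.

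The time course of each gene was last compared with that of 9421 genes of at least 3 in average log2 CPM, as the Euclidean distance between the log2 fold changes of the 5 time points. The distance is a description of likeness over these libraries, which all 10 comparisons share. It is not scaled to the size of a gene's changes, and no usual nearest distance was computed to set beside it. CDK4 had the closest match of all, GFM1, at a distance of 0.155, and CDK1 was closest to MFSD6 at 0.200. CDK6 was closest to ALG11 (0.286) and CCND1 to ZNRD2 (0.320). Among the 10 genes CDK6 and CCND1, the only 2 that rose at the last time point, were closest to each other (0.622). CCNE2 was closest to PDCL (0.334), CCND3 to TAF6 (0.421) and RB1 to UACA (0.441). CDK2 was closest to IDH1 (0.604), CDC25A to SMURF1 (0.659) and CCNE1 to ARHGEF5 (0.686). Within the 10 genes CDK2 and CCNE1 were nearest to each other at 2.30, CDK4 and CCND3 at 1.02, and CCNE2 and CDC25A at 1.28, while RB1 lay 2.82 from its nearest, CCNE2. UACA shared the low values of RB1 at 10 h, 24 h and 48 h (-2.02, -2.75 and -3.46) and its smaller one at the last time point (-1.93).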

How the data were processed

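Count data were used for 17 libraries of YB5 cells, with treatment, time, replicate and batch taken from the labels. The authors aligned reads to GRCh38 with STAR 2.7.5a, took reads per gene from the aligner's own counting on an Ensembl annotation, and deposited raw counts of 19141 genes, of which 19080 were matched to a GENCODE v44 symbol. The strand setting of the counting is not given in the sources used here. A deposited table of the authors' edgeR comparisons (fold changes and p-values) was not used, nor was 1 count column that matched no sample. Libraries of cells treated with HH1 were not analysed here.

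Low counts were removed with filterByExpr, TMM factors were computed, and contrasts were tested with edgeR 4.0.16 (glmQLFit with legacy=TRUE, then glmQLFTest) in R 4.3.3, with calls at a Benjamini-Hochberg adjusted p under 0.1. For all times but 10 h, 14 libraries and 14491 genes entered the fit. For 10 h, all 17 libraries and 16521 genes did. DESeq2 1.42.0 was run as an alternative. Other steps used Python 3.11.15 with pandas 2.3.3, numpy 2.4.6, scipy 1.17.1 and matplotlib 3.10.9. The fits were tested on simulated data. Alternatives were other scalings, filters, thresholds and tests, a batch term, the replicate block and leaving out each library.

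The 10 genes, the pathway lists and the tests were chosen with earlier results of these data known. All 10 genes are named, as are CDKN1A, CDKN1B, CDKN2A, the called genes with the highest and the lowest log2 fold change at the last time point in each list, and the gene nearest in pattern to each of the 10. Genes with shared exons were named after their values were seen.

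At 2 h replicate numbers coincide with the labelled batches, and libraries of equal number deviated together (correlation 0.31), so the numbers pair them. The values given are from the fit without this block, and counts with the block stand beside them. At the last time point these correlations were -0.11, 0.04 and -0.09, and the numbers do not pair the libraries. The labels speak of biological triplicates without naming the cultures, so p-values measure the spread between these samples, which may be technical. Counting intervals are exact and cover counting error only.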

Additional observations from a re-analysis of the deposited data

Results flagged for a closer look

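For 9 of the 10 genes the effect of toyocamycin differed between the last time point and 2 h, by edgeR's test of that difference. Of all genes tested, 38.1% were called lower and 38% higher in the same test. The effect at the last time point minus that at 2 h was -6.44 on the log2 scale for CCNE1, -5.74 for CDK2, -1.81 for CDK1, -1.76 for RB1, -1.38 for CCNE2, -1.23 for CDK4 and -0.54 for CCND3. It was 2.05 for CDK6 and 1.66 for CCND1. When scaled to the mitochondrial genes the difference missed the threshold for CDK6 (1.002, edgeR adjusted p = 0.213) and CCND1 (0.68, edgeR adjusted p = 0.413), and with the size factors of DESeq2 it did so for CCND3 (-0.25, edgeR adjusted p = 0.336). The difference for CCND3 also missed it without DMSO replicate 2 at 2 h (-0.37, edgeR adjusted p = 0.176) and without toyocamycin replicate 1 at 2 h (-0.41, edgeR adjusted p = 0.157).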

How the results depend on the processing

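At the last time point 8 genes were called lower in every setting tried except DESeq2 size factors, the DESeq2 Wald test and a minimum fold change of 1.5, which called 7 and lost CCND3. There 2 were called higher in every setting except scaling to mitochondrial genes, which called 1 and lost CCND1. At 2 h the 2 lower genes became 0 with that scaling, and 1 with the DESeq2 Wald test, with all 17 libraries in the fit, at an adjusted p under 0.05, at a minimum fold change of 1.5, with a batch term and without any 1 library (1 to 1). At 10 h, 8 were called lower with library size alone, and 1 was called higher with DESeq2 size factors or the DESeq2 Wald test. Of the 3 calls between the DMSO times, 1 was left with mitochondrial scaling or a minimum fold change of 1.5. The CCNE1 call among them also ended with a batch term and with all 17 libraries in the fit. The causes were not tested.

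Signs turned in 36 instances, 1 of them of a called value, PCNA at the last time point (-0.28 with mitochondrial scaling). With DESeq2 size factors and with its Wald test alike, the log2 fold change at 10 h was 0.14 for CDK2 and 0.10 for CCND1, and the last minus 2 h difference of CDC25A was 0.26. CCND3 at 10 h was at 0.0221 and 0.0227, and CDKN1B at 0.0908 and 0.0893. Library size alone gave -0.0168 for CDK1 and -0.0553 for CCND3 at 2 h and -0.16 for CDK4 at 10 h. Mitochondrial scaling gave -0.0626 for CDK1, -0.0563 for CCND1 and -0.19 for CCND3 at 2 h and -0.86 for CDK4 at 10 h. With the replicate block, CCND3 at 2 h was at -3.7e-04, and the block changed no call among the 10 genes, with 2 called lower at 2 h and 8 lower and 2 higher at the last time point. Over all genes the block at 2 h called 2217 lower and 1033 higher of 11848, against 1220 and 75 of 14491 without it. Within the 10 h libraries no paired analysis was possible because the arms share 1 replicate number, and the batch term over 17 libraries called 4490 lower and 6239 higher there.

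When libraries were left out in turn, log2 fold changes at 2 h ran from -0.10 to 0.19 for CDK1, -0.44 to 0.059 for CDK6, -0.10 to 0.21 for CCND1, -0.17 to 0.20 for CCND3, -0.54 to 0.0104 for CCNE1 and -0.0904 to 0.44 for RB1. The difference of CDC25A ran from -0.21 to 0.18. At 10 h they ran from -0.13 to 0.0038 for CDK2, -0.32 to 0.0864 for CCND1, -0.56 to 0.13 for CCND3 and -0.80 to 0.36 for CDKN1B, the lower ends being without toyocamycin replicate 1, where CCND3 and CDKN1B were called lower.

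Scaling moved the split of calls over all genes. At the last time point 6065 were lower and 6804 higher with TMM, 5379 and 7447 with DESeq2 size factors, 7297 and 5657 with library size alone, and 7362 and 4204 with mitochondrial scaling. At 10 h these were 4033 and 3375, 3370 and 4258, 5676 and 1872, and 5362 and 503. Counts of 2 to 13 reads limit the precision of CDK2 and CCNE1 on toyocamycin at the last time point, and 24 h and 48 h have no replicates.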
